A study of Mus musculus with 10 samples.

Results

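Basement membrane collagens were examined in smooth muscle cells cultured from mouse aorta, as the 8 genes of the type IV, XV and XVIII collagen chains (Col4a1 to Col4a6, Col15a1 and Col18a1) among 36144 genes in the expression table. They were selected by gene symbol alone, and all 8 were in the table. The overexpression mice carried Myh11-Cre-ERT2, a tamoxifen-activated recombinase driven by a smooth muscle myosin promoter, with overexpression of Adamts7, a secreted metalloprotease of the extracellular matrix. The wild-type mice were of no named strain or driver, so the driver and the overexpression cannot be told apart, and which mice received tamoxifen was not given in the sources used here. All mice were 8-week-old males, and the cells came from the digested aortic media and were used at passages 2 to 7. RNA was sequenced from 3 overexpression and 3 wild-type cultures, each from its own mouse, and ATAC-seq of the same genotypes was not used here. The values are TPM (a relative abundance corrected for transcript length), from which read depth cannot be recovered.

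Type IV collagen is the network-forming collagen of every basement membrane, the thin matrix sheet that surrounds each smooth muscle cell of the arterial wall. Its chains assemble into trimers of 3 known kinds, the widespread alpha1-alpha1-alpha2 trimer, the alpha3-alpha4-alpha5 trimer of kidney glomeruli, lung and inner ear, and the alpha5-alpha5-alpha6 trimer, which is found in skin and around smooth muscle. Collagens XV and XVIII are proteoglycans that sit in basement membrane zones and release endostatin-type fragments from their C-terminal ends. Each type IV gene lies head to head with another, so that the genes of a pair are transcribed away from a common 5′ region.

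The promoter windows of the most abundant head-to-head pair and of the pair whose RNA patterns were least alike over the libraries are shown to compare their start regions. Sequences are from RefSeq on GRCm38.p6 (mm10), from 250 bases before to 50 after the start, 5′ to 3′ on the strand of the gene. Windows were matched for 7 of the 8 genes, with a pair of windows for Col18a1 and none for Col4a3. Col4a1 (chr8:11312777-11313076, minus strand) and Col4a2 (chr8:11312555-11312854, plus strand) share 78 bases, which are in capitals and are reverse complements of each other.
Col4a1: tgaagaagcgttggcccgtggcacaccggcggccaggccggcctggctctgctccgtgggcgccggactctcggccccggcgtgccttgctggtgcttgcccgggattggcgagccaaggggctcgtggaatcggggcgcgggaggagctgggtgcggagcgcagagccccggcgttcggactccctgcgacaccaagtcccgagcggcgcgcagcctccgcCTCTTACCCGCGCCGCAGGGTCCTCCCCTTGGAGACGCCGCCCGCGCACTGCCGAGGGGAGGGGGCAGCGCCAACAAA
Col4a2: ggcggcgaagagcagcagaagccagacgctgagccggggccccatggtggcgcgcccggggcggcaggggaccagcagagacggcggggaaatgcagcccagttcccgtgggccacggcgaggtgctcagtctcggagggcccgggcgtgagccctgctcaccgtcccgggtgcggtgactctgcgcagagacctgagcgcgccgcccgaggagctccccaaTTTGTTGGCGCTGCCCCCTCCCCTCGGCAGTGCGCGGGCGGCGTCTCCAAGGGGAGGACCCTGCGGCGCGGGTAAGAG
The starts used for these windows are 21 bases apart. The annotated gene spans, in which Col4a1 reaches further, to 11312889, overlap by 85 bases. Col4a6 (chrX:141474027-141474326, minus strand) and Col4a5 (chrX:141475169-141475468, plus strand) do not overlap, and 1274 bases separate the genes. In this pair the capitals mark the GC box GGGCGG on either strand.
Col4a6: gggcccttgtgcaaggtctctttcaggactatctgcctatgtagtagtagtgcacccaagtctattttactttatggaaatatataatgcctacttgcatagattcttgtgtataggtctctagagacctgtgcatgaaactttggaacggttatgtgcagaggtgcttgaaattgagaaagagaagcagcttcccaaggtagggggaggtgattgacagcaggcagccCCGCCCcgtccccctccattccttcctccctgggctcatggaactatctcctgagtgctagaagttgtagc
Col4a5: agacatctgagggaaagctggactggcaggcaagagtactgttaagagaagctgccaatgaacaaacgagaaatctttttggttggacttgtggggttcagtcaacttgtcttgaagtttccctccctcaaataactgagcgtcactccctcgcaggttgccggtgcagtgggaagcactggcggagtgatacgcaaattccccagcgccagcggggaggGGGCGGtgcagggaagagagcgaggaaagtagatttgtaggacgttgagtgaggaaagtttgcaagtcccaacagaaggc
The Col4a1 and Col4a2 windows were 74.0% and 73.7% G or C with 37 and 33 CG dinucleotides, whereas the Col4a6 and Col4a5 windows were 48.3% and 52.7% G or C with 3 and 11. The Col4a4 window was 63.3% G or C with 14, and it held neither GGGCGG nor CCAAT. The median of all 32851 windows was 52.7%. Searched on both strands, GGGCGG occurred in 5 of the 8 windows of these collagen genes and in 35.7% of all windows. The shared Col4a1 and Col4a2 bases held 1 copy. It counts in both windows and is the only copy in the Col4a1 window. CCAAT occurred in 4 of the 8 windows, against 37.4% of all, while TATAAA and TGACTCA occurred in 0 of the 8, against 13.6% and 5.20% of all. No copies of GGGCGG and CCAAT overlapped in these windows, and a match only describes these letters.

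Adamts7 itself checked the genotype labels. It stood at 98.7, 79.1 and 75.8 TPM in overexpression replicates 1, 2 and 3, against 6.08, 6.18 and 8.20 TPM in wild-type replicates 1, 2 and 3. No overexpression library lay near the wild-type range. Libraries are given in this replicate order throughout. The limma fit ran over the 13131 genes averaging 1 TPM or more, of which 2 passed an adjusted p of 0.05, Adamts7 among them. Overexpression replicate 3 had a score of -0.67 on the first principal component, against 18.6 and 39.4 for the other overexpression libraries and -20.3 to -16.8 in wild type. All 14 markers of the labelled smooth muscle identity averaged 1 TPM or more, which is a low bar. Acta2, smooth muscle actin, was at 1764 ± 501 TPM in overexpression and 1249 ± 40.8 TPM in wild-type cultures (SD, n = 3 each). None of the 16 endothelial markers was absent, and Emcn, an endothelial sialomucin gene, was at 1153 ± 302 and 2046 ± 191 TPM in the same groups. The 16 endothelial markers summed to 3803 ± 1005 TPM in overexpression and 5949 ± 284 TPM in wild type. The 14 smooth muscle markers summed to 5459 ± 852.5 and 4179 ± 62.4 TPM. In wild type the endothelial sum was the larger, so these markers do not settle the labelled identity. RNA of a bulk culture cannot tell fewer cells of a type from less RNA per cell.

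RNA of the type IV network came mainly from Col4a1 and Col4a2. These held 94.97% ± 0.301 of the summed type IV TPM in overexpression cultures and 95.61% ± 0.150 in wild-type cultures (SD, n = 3 each). Col4a1 was the most abundant of the 8 genes and of rank 133 among 36144 genes by wild-type level. Below it came Col4a2 of rank 486, Col18a1 of rank 1897 and Col4a5 of rank 3804, and these 4 kept this order in all 6 libraries. The other 4 genes stood between 1.503 and 7.39 TPM. Among these, wild-type Col4a4 and Col4a3 overlapped, as did Col4a6 and Col15a1, so their order was not resolved beyond the spread. In overexpression cultures the 4 low genes overlapped as well, with means of 5.17 TPM for Col15a1, 4.04 for Col4a6, 2.92 for Col4a4 and 2.90 for Col4a3.

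**Figure D1:**
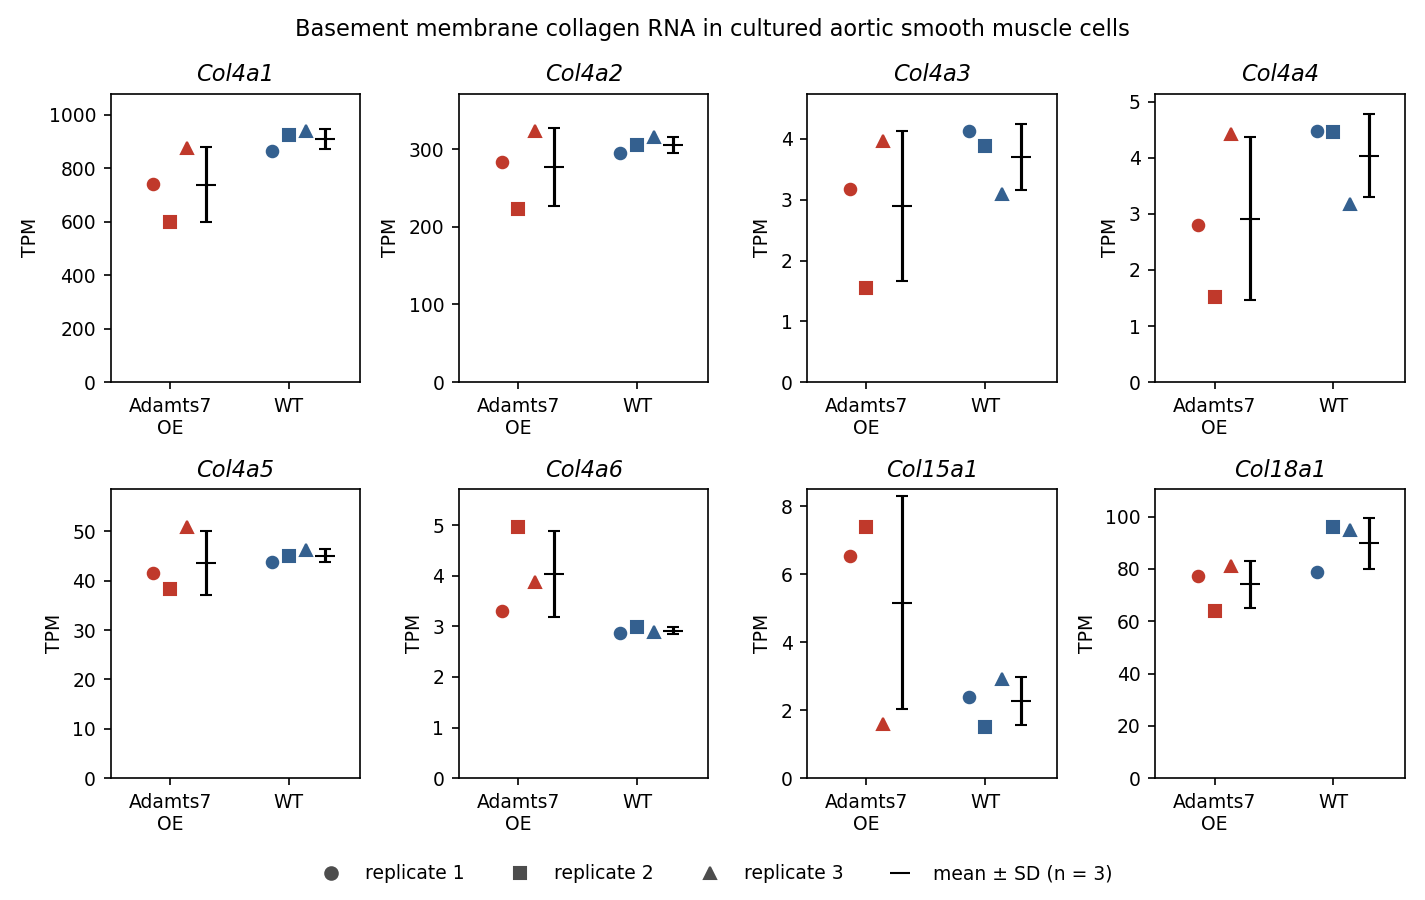
RNA level in TPM (vertical axes, each from 0) of the 8 collagen genes in Adamts7 overexpression (OE, red) and wild-type (WT, blue) cultures; symbols are single libraries and bars are the mean ± SD of 3. Col4a6 is the gene whose overexpression libraries all lie above wild type, and overexpression replicate 2 is the lowest library for Col4a1 to Col4a5 and Col18a1.

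Between genotypes, 6 of the 8 genes were lower on average in overexpression cultures, as were 51.7% of all genes tested, and 2, Col4a6 and Col15a1, were higher. None of the 8 passed limma with Benjamini-Hochberg adjustment, where 0.0152% of all genes tested did. At an unadjusted p under 0.05 stood Col4a1 and Col18a1, both lower. That is 2 of 8 genes, against 19.5% of all genes tested in either direction and 8.94% in the lower direction. The median log2 fold change of the 8 was -0.22, and that of all genes tested was -0.0090. Without overexpression replicate 2 the median of the 8 was -0.026, and without replicate 3 it was -0.31. The count of 2 changed when a library was left out, which also leaves fewer libraries to test. Both limma p-values, 0.0446 and 0.0451, lay near the threshold. Without wild-type replicate 2 or 3 the log2 fold change of Col4a1 was -0.30 and -0.29, against -0.32 with all libraries. The count was 0 without overexpression replicate 2, wild-type replicate 2 or wild-type replicate 3, where the share over all genes was 16%, 14.3% and 12.8%. It was 1 without overexpression replicate 1 or wild-type replicate 1, where that share was 14.6% and 13.8%, and these counts lay near the background. Without overexpression replicate 3 it was 5, where the share was 25.7%.

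**Figure D2:**
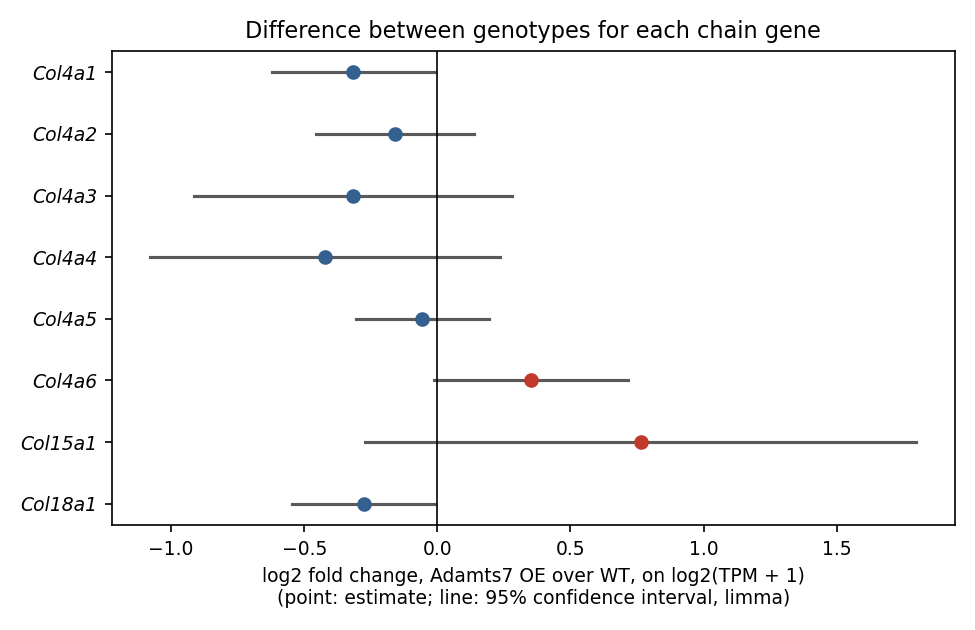
Log2 fold change of overexpression over wild type on the log2(TPM + 1) scale (horizontal axis) for each gene, with the 95% confidence interval from limma as a line. Points left of 0 (blue) are lower and points right of 0 (red) are higher in overexpression cultures; Col15a1 has the widest interval, from -0.27 to 1.80.

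Col4a1 encodes the alpha1 chain, present in duplicate in the common trimer. Its level was 740.3, 599 and 877.5 TPM in overexpression libraries, against 866, 923 and 939 TPM in wild-type libraries. Overexpression replicates 1 and 2 lay below every wild-type library, while replicate 3 lay within their range. The means were 739 ± 139 TPM in overexpression and 909 ± 38.2 TPM in wild type (SD, n = 3 each). The log2 fold change was -0.32 ± 0.13 (SE; 95% interval -0.62 to -0.010), and limma gave an unadjusted p of 0.0446 and an adjusted p of 0.246. Without overexpression replicate 2 the log2 fold change was -0.17. Col4a1 (ENSMUSG00000031502.11) lies on chromosome 8 from 11198423 to 11312889.

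Col4a2, its partner gene on chromosome 8 from 11312805 to 11449287, encodes the alpha2 chain of the same trimer. It was at 283, 223 and 323 TPM in overexpression libraries, against 295, 305 and 316 TPM in wild-type libraries. Overexpression replicate 3 was the highest library and replicate 2 the lowest, so that the groups overlapped. The log2 fold change was -0.16 ± 0.13 (SE; 95% interval -0.45 to 0.14; limma adjusted p = 0.525). The fold change was -0.013 on this scale without overexpression replicate 2 and -0.28 without replicate 3. The strand setting of the quantification was not given in the sources used here, and over the 85 bases where the genes overlap reads of both could not be told apart without it.

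Within each library, Col4a1 had 2.61, 2.69 and 2.72 times the TPM of Col4a2 in overexpression cultures, against 2.93, 3.03 and 2.97 times in wild-type cultures. The groups did not overlap, and the spread within each was small. The mean ratio was 2.67 ± 0.0538 in overexpression and 2.98 ± 0.0466 in wild type (SD, n = 3 each). Scaling a library multiplies both genes alike, so this ratio does not depend on it. On the log2 scale the difference was -0.16, and it lay between -0.17 and -0.14 when any library was left out. The ratio was chosen with the levels of both genes known, and no test is given. Of single genes tested, 27.2% did not overlap between genotypes, and the share among ratios of other gene pairs was not computed.

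**Figure D3:**
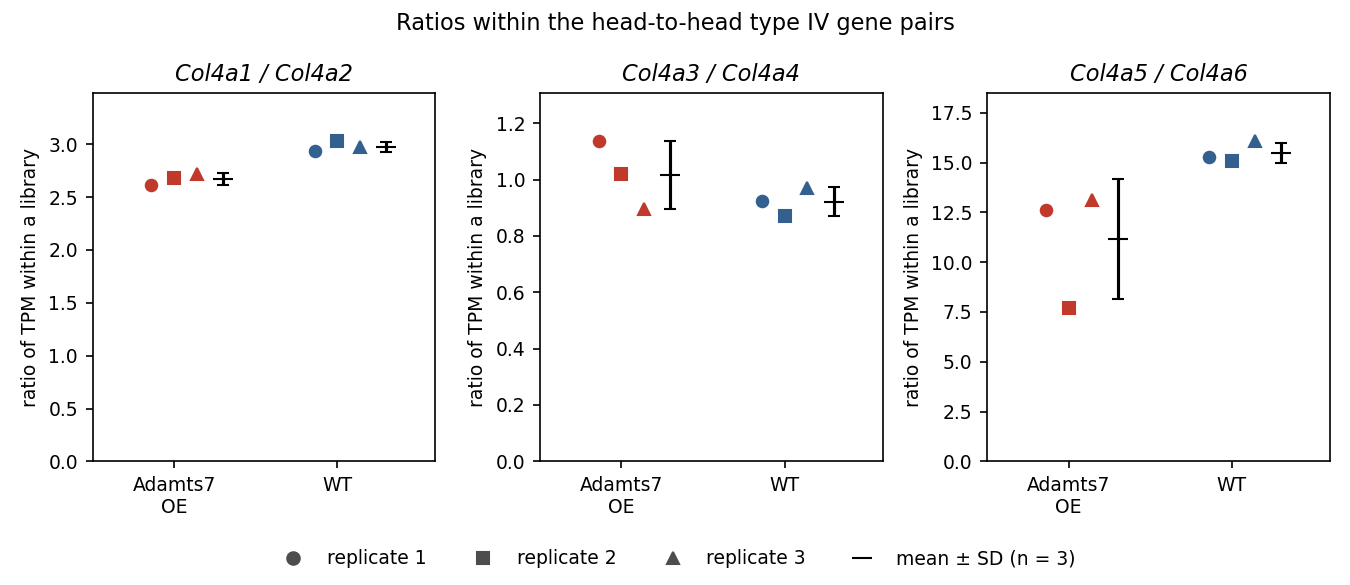
Ratio of TPM between the genes of each head-to-head type IV pair within a library (vertical axes, each from 0), for overexpression (OE, red) and wild-type (WT, blue) cultures with the mean ± SD of 3. The Col4a1 to Col4a2 ratio sits between 2.61 and 2.72 in overexpression and between 2.93 and 3.03 in wild type, and the Col4a3 to Col4a4 ratio overlaps between genotypes.

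Col4a3 and Col4a4 encode chains of the epithelial trimer and were low. Col4a3 was at 3.17, 1.55 and 3.96 TPM in overexpression libraries, against 4.13, 3.88 and 3.09 TPM in wild-type libraries. Col4a4 was at 2.80, 1.53 and 4.42 TPM in overexpression libraries, against 4.47, 4.46 and 3.18 TPM in wild-type libraries. Both genes were lowest in overexpression replicate 2, both were near or above 4 TPM in replicate 3, and within wild type both were lowest in replicate 3. The log2 fold changes were -0.32 ± 0.25 for Col4a3 and -0.42 ± 0.28 for Col4a4 (SE), with limma adjusted p-values of 0.527 and 0.446. Without overexpression replicate 2 the log2 fold changes were -0.040 and -0.14, and without replicate 3 they were -0.52 and -0.69. Their 95% intervals, -0.91 to 0.28 and -1.08 to 0.24, leave room for a difference in either direction. Within a library the Col4a3 to Col4a4 ratio was 1.14, 1.02 and 0.895 in overexpression and 0.923, 0.870 and 0.971 in wild type. The genes lie on chromosome 1, Col4a3 from 82586921 to 82722059 and Col4a4 from 82448419 to 82587034, with spans that overlap by 114 bases. Of 11 epithelial and podocyte markers, 8 had a mean under 1 TPM, among them Epcam, Cdh1 and Nphs1, which were listed here outside the naming rule. The other 3, Synpo, Krt18 and Podxl, averaged 312, 109 and 17.4 TPM in overexpression and 376.5, 153 and 25.25 TPM in wild type.

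Col4a5, whose chain joins both of the less common trimers, was at 41.6, 38.3 and 50.9 TPM in overexpression libraries, against 43.8, 45.1 and 46.3 TPM in wild-type libraries. The wild-type libraries lay inside the overexpression range. The log2 fold change was -0.056 ± 0.11 (SE; 95% interval -0.30 to 0.19; limma adjusted p = 0.807), and it was 0.030 without overexpression replicate 2 and -0.17 without replicate 3. Col4a6, its head-to-head partner, encodes the chain that completes the trimer found around smooth muscle. It was at 3.29, 4.96 and 3.87 TPM in overexpression libraries, against 2.86, 2.99 and 2.88 TPM in wild-type libraries.

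Col4a6 was the 1 gene of the 8 whose genotypes did not overlap, a pattern found in 27.2% of all genes tested and, with overexpression above, in 14.3%. None of the 8 lay wholly below wild type, where 12.9% of all genes tested did. Its means were 4.04 ± 0.847 TPM in overexpression and 2.91 ± 0.0670 TPM in wild type (SD, n = 3 each). The log2 fold change was 0.35 ± 0.16 (SE; 95% interval -0.012 to 0.72), and limma gave an unadjusted p of 0.0560 and an adjusted p of 0.265. Without overexpression replicate 2 the log2 fold change was 0.23. The Col4a5 to Col4a6 ratio was 12.6, 7.72 and 13.1 in overexpression libraries, against 15.3, 15.1 and 16.1 in wild-type libraries, with no overlap. The share of other gene pairs whose ratio did not overlap was not computed. Both genes are on chromosome X, Col4a5 from 141475370 to 141689236 and Col4a6 from 141165403 to 141474095.

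Col18a1 encodes collagen XVIII, the source of endostatin, an inhibitor of vessel growth. It was at 77.1, 63.9 and 81.1 TPM in overexpression libraries, against 78.7, 96.0 and 94.98 TPM in wild-type libraries. Wild-type replicate 1 lay among the overexpression values, and the other two wild-type libraries lay above all of them. The means were 74.1 ± 8.99 TPM in overexpression and 89.9 ± 9.72 TPM in wild type (SD, n = 3 each). The log2 fold change was -0.28 ± 0.11 (SE; 95% interval -0.55 to -0.0080), with a limma unadjusted p of 0.0451 and adjusted p of 0.248. Without overexpression replicate 2 the log2 fold change was -0.18. The gene (chromosome 10, from 77052178 to 77166530) has separate starts, whose transcripts are summed in the deposited value.

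Col15a1 encodes the related collagen XV, which links basement membranes to the fibrils outside them. It was at 6.54, 7.39 and 1.58 TPM in overexpression libraries, against 2.39, 1.503 and 2.92 TPM in wild-type libraries. Overexpression replicates 1 and 2 were above all wild-type libraries, and replicate 3 was near the lowest of them. The means were 5.17 ± 3.14 TPM in overexpression and 2.27 ± 0.716 TPM in wild type (SD, n = 3 each). The log2 fold change was 0.76 ± 0.44 (SE; limma adjusted p = 0.379), and it was 0.46 without overexpression replicate 2. Without overexpression replicate 3 the log2 fold change was 1.31 and passed limma with an adjusted p of 0.0210, over alternatives ranging from 0.0210 to 0.660. Of all genes tested, 3.99% were then called higher and 6.30% in either direction. Col15a1 (chromosome 4, from 47207655 to 47313167) was the 1 collagen of the 8 called in that fit.

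The libraries in which the collagens stood apart also differed in markers of other cell types. The list median of 20 macrophage markers, on the log2(TPM + 1) scale as a difference from wild type on average, was 2.16, 1.99 and 0.68 in overexpression libraries and -0.24, 0.21 and 0.027 in wild-type libraries. That of 16 endothelial markers was -0.45, -0.92 and -0.26 in overexpression libraries and -0.024, -0.025 and 0.087 in wild-type libraries. The same values for Col4a1 were -0.30, -0.60 and -0.051 in overexpression libraries, and those for Col15a1 were 1.23, 1.38 and -0.32. In overexpression replicate 3, Col4a2, Col4a3, Col4a4, Col4a5 and Col4a6 were above 0, at 0.081, 0.085, 0.12, 0.17 and 0.32, and Col18a1 was at -0.14. In that library the endothelial median was below 0, and the macrophage median was above 0 where Col15a1 was below. All 20 macrophage markers had an unadjusted p under 0.05 in the higher direction, where 10.6% of all genes tested had one. Their summed level was 1259 to 4032 TPM in overexpression and 532 to 784 TPM in wild type. Lyz2, the myeloid lysozyme gene, was at 1348 and 246 TPM in the same order, Aif1 at 22.7 and 6.04, and C1qa at 287 and 74.8 TPM on average. Of 16 endothelial markers 12 had such a p in the lower direction, where 8.94% of all genes tested did. Their summed level was 2751 to 4753 TPM in overexpression and 5625 to 6152 TPM in wild type. Cdh5, the endothelial cadherin gene, averaged 612 TPM in overexpression and 919 TPM in wild type, and Sox17, an endothelial transcription factor gene, 32.6 and 43.7 TPM. No marker of either list was at 0 in all libraries, and the part of these cell types in the collagen values was not tested.

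Of 14 smooth muscle markers 9 had an unadjusted p under 0.05, all in the higher direction, where 10.6% of all genes tested had one. The median log2 fold change of the 14 was 0.40. Their summed level was 4753 to 6406 TPM in overexpression and 4115 to 4240 TPM in wild type. Cald1 had 0.15, Lmod1 0.73 and Tpm2 1.21 as log2 fold changes. Of 10 fibroblast markers 4 had a mean under 1 TPM, among them Dpt and Lum. Of the 6 tested, 1 was higher and 2 were lower at such a p, against 10.6% and 8.94% of all genes tested. The summed level of the 10 was 643 to 1001 TPM in overexpression and 999 to 1163 TPM in wild type. Most of it came from Cd34, which endothelial cells also express. Dcn had -0.58, Cd34 -0.46 and Ly6a 0.35. The 3 tested epithelial and podocyte markers, Krt18, Podxl and Synpo, had -0.52, -0.55 and -0.29. The summed level of the 11 was 346 to 535 TPM in overexpression and 541 to 568 TPM in wild type. At such a p, no fibroblast marker was left without overexpression replicate 1 or wild-type replicate 3 and 1 without overexpression replicate 2 or wild-type replicate 1. Of the 3 tested epithelial markers 2 had such a p, both in the lower direction, against 8.94% of all genes tested. This count was 0 without overexpression replicate 1, wild-type replicate 2 or wild-type replicate 3, and 1 without overexpression replicate 2 or wild-type replicate 1. Over all genes tested, the share at such a p was 12.8% to 16% in these left-out fits. The part of these cells in the collagen values was not tested either.

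**Figure D4:**
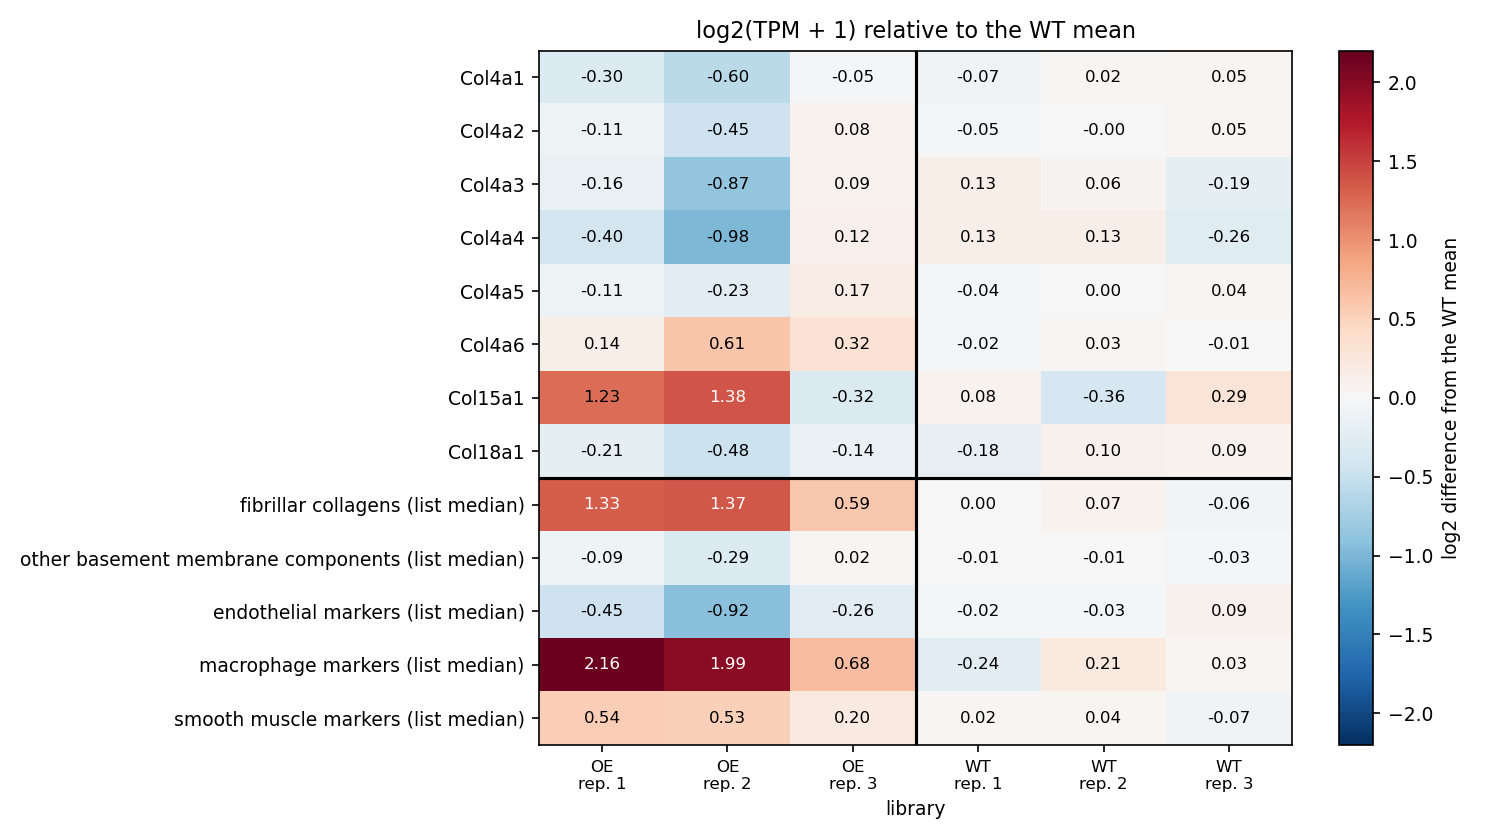
Log2(TPM + 1) of the 8 collagen genes (upper rows) and the median of 5 gene lists (lower rows) in each library, relative to the wild-type mean of each gene, with overexpression (OE) left of wild type (WT) and colour from blue (lower) to red (higher). Overexpression replicate 2 has the strongest negative value for Col4a4, -0.98, and replicate 3 lies near 0 for most collagens.

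Other structural components of basement membranes included genes with both signs. Of 17 tested, 5 had an unadjusted p under 0.05 in the lower and 3 in the higher direction, against 8.94% and 10.6% of all genes tested, and none passed after adjustment. Their median log2 fold change was -0.16, and -0.067 without overexpression replicate 2. Nid1, which encodes the linker nidogen-1 that joins laminin to type IV collagen, was at 170.2, 162 and 190 TPM in overexpression libraries, against 247, 219 and 220 TPM in wild-type libraries, without overlap. Hspg2, the gene of the heparan sulphate proteoglycan perlecan, was at 252, 217 and 263 TPM in overexpression libraries, against 309, 290.3 and 289 TPM in wild-type libraries. Tinagl1, which encodes a secreted matrix protein, had a log2 fold change of -0.44 ± 0.12. Smoc1, a gene of a calcium-binding matrix protein, had 0.30 ± 0.059 (SE). Limma adjusted p-values for these 4 genes lay between 0.128 and 0.151.

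Fibrillar collagens form fibres outside basement membranes, and 7 of the 9 tested were higher on average in overexpression cultures. Of these 9, 6 had an unadjusted p under 0.05, all in the higher direction, where 10.6% of all genes tested had one. The median log2 fold change of the 9 was 1.20, and that of all 11 with no filter was 0.40. Col3a1 and Col2a1 had 1.20 ± 0.13 and 2.84 ± 0.56, Col1a1 1.27 ± 0.29 and Col5a2, of the type V chain, -0.048 ± 0.11 (SE), and none passed after adjustment (limma adjusted p between 0.121 and 0.838). Summed type IV TPM was 0.889, 0.545 and 1.28 times the summed TPM of the 11 fibrillar genes in overexpression libraries, against 1.65, 1.62 and 1.77 times in wild-type libraries. This ratio did not overlap between genotypes, whereas summed type IV TPM alone did. It was 1075, 869 and 1264 TPM in overexpression libraries, against 1217, 1285 and 1310 TPM in wild-type libraries. The fibrillar sum was 1209, 1594 and 985 TPM in overexpression libraries and 738, 792 and 742 TPM in wild-type libraries, without overlap. The difference between the gene lists was not tested.

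Genes that fold, modify and export collagen chains had a median log2 fold change of 0.11. Of 25 tested, 7 had an unadjusted p under 0.05 in the higher and 1 in the lower direction, against 10.6% and 8.94% of all genes tested. The 8 genes at such a p became 2 without wild-type replicate 2, where the share over all genes was 14.3%. They became 5 without overexpression replicate 3, wild-type replicate 1 or wild-type replicate 3, where it was 25.7%, 13.8% and 12.8%. P3h4, a gene of the lysyl hydroxylation complex, was at 51.3, 58.5 and 41.2 TPM in overexpression libraries, against 32.8, 33.6 and 34.5 TPM in wild-type libraries. Plod2, which encodes a lysyl hydroxylase, had 0.45 ± 0.12, and P4hb, a subunit of prolyl hydroxylase and a disulphide isomerase, 0.20 ± 0.066. Sparc, whose product binds type IV collagen, was nearly level at 1947 ± 115 TPM in overexpression and 2001 ± 11.3 TPM in wild type (SD, n = 3 each). The limma adjusted p-values of these 4 genes lay between 0.131 and 0.765.

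Peroxidasin (Pxdn), the enzyme that forms the sulfilimine bonds between type IV molecules, was at 49.8, 48.1 and 52.3 TPM in overexpression libraries, against 51.6, 53.6 and 57.4 TPM in wild-type libraries. Overexpression replicate 3 lay within the wild-type range. Of the 4 lysyl oxidase-like genes listed with it, which crosslink collagens and elastin, 3 had an unadjusted p under 0.05. All 3 were higher, against 10.6% of all genes tested in that direction. Loxl1 had a log2 fold change of 0.97 ± 0.22 and Loxl3 0.67 ± 0.16 (SE; limma adjusted p = 0.131 for both).

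Receptors that bind these collagens had 7 of 18 tested genes with an unadjusted p under 0.05 in the higher and 1 in the lower direction, against 10.6% and 8.94% of all genes tested. Their median log2 fold change was 0.21, but 0.13 without overexpression replicate 2 and -0.030 over the receptors averaging 5 TPM or more, so its sign depended on the filter. Itgb1, the beta1 integrin chain shared by the collagen-binding integrins, was at 1113, 1075 and 1082 TPM in overexpression libraries, against 936, 930.4 and 942 TPM in wild-type libraries. The groups did not overlap, and its log2 fold change was 0.22 ± 0.052 (SE; limma adjusted p = 0.131). Itgb5, the beta5 integrin chain, had 0.61 ± 0.096 (limma adjusted p = 0.128), Lair1, a collagen receptor of leukocytes, 1.46 ± 0.32 (0.131), and Itga3, the alpha3 integrin chain, -0.24 ± 0.15 (0.417). The receptor with the lower value was Kdr, also an endothelial marker and named after its values were seen, at -0.79 ± 0.23. Proteases able to cut basement membrane collagens had 6 of 14 tested genes with an unadjusted p under 0.05, all higher, where 10.6% of all genes tested had one. Their median log2 fold change was 0.28, and it was 0.17 without overexpression replicate 2 and 0.066 with no filter. Mmp12, the macrophage elastase gene, was at 154, 117 and 49.0 TPM in overexpression libraries, against 29.6, 33.1 and 33.1 TPM in wild-type libraries. Ctss, a cathepsin gene that is also in the macrophage list, had 1.94 ± 0.41, Ctsb 0.44 ± 0.14 and Ctsl -0.040 ± 0.065 (SE). Elane and Plg, listed outside the naming rule, were at 0 in all 6 libraries.

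The genes of most like pattern were found by the root mean square difference of log2(TPM + 1), relative to each gene's own mean, over the 6 libraries. For Col4a1 these were Rgs3, Fam3c and Atrnl1, at 0.0162 to 0.0246, and Col4a2 came at rank 270 of 13130 with 0.0813. For Col4a2 they were Ppp3ca, Zfp57 and Nck2, and Col4a1 came at rank 432. Among the genes nearest to Col4a4 were Fam124a and Col4a3, and Col4a4 was of rank 11 for Col4a3, to which Ido1 and Fam124a were near. The Col4a5 and Col4a6 pair differed more, at 0.298, with Col4a6 at rank 11062 for Col4a5 and Col4a5 at rank 7663 for Col4a6.

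Col5a2, the type V collagen chain gene, was nearest to Col4a5 at 0.0210, followed by Cyb5d1 and Cntln. Nearest to Col4a6 were Fkbp14, a prolyl isomerase gene of the endoplasmic reticulum, at 0.0483, then Insig1 and Arl4a. Nearest to Col18a1 were Cox6b2, Naglu and Arrb1, at 0.0325 to 0.0395. Col15a1 lay farthest from its nearest gene, which was Ccl4, a chemokine gene, at 0.151. Rgs1 and Fcgr4, a myeloid Fc receptor gene, followed at 0.196 and 0.198. This difference is not scaled to the spread of a gene, and Col15a1 varied most among these collagens. Ccl4 was at 2.61, 3.49 and 0.630 TPM in overexpression libraries, against 0.581, 0.259 and 0.857 TPM in wild-type libraries. Like Col15a1, it was high in overexpression replicates 1 and 2 and within the wild-type range in replicate 3. Ccl4 was under 1 TPM in the remaining libraries and passed the filter only through overexpression replicates 1 and 2. In those libraries Rgs1 was at 0.592 to 1.23 TPM and Fcgr4 at 0.811 to 1.21 TPM, around the filter of 1 TPM. The likeness of Ccl4, Rgs1 and Fcgr4 to Col15a1 is therefore a description and carries no weight.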

How the data were processed

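The authors deposited 1 table of TPM per gene and library, produced with kallisto per the labels. Per the submitters' processing notes, mm10 was the build. Version, annotation, strand setting and depth of the kallisto runs were not given in the sources used here. Such values are relative within a library, so an abundant gene that differs lowers the others. All libraries carry the same batch label, so no batch comparison was possible.

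Values were tested as log2(TPM + 1) by limma 3.58.1 (R 4.3.3; lmFit and eBayes, trend on, two-sided, Benjamini-Hochberg over 13131 genes averaging 1 TPM or more), in 3 overexpression and 3 wild-type libraries. Fold changes on this scale understate changes of low genes. The fit was tested on simulated data. Mouse numbers did not pair libraries. The collagen genes, lists and tests were chosen with earlier results of these data known. Named genes are the 8 collagens and Adamts7, per list the 2 most abundant and the 2 of smallest p, and the 3 nearest in pattern. Some of these are not reported here. Positions and promoters came from RefSeq GRCm38.p6. Alternatives covered pseudocount, filter, scaling, library weights, mouse number and leaving out each library.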

Additional observations from a re-analysis of the deposited data

How the results depend on the processing

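No collagen of the 8 passed adjustment in the reported fit. With array quality weights, which gave overexpression replicate 1 a weight of 5.66 and replicates 2 and 3 0.278 and 0.487, 3 passed, and 2728 of all genes tested (20.8%) did. These were Col4a1 (log2 fold change -0.30, adjusted p = 0.0216, alternatives from 0.0216 to 0.469), Col18a1 (-0.26, 0.0398, from 0.0398 to 0.485) and Col15a1 (1.16, 0.0325, from 0.0210 to 0.660); the cause was not tested. Leaving out a library gave 0 to 1 collagens past adjustment, 0 to 5 at an unadjusted p under 0.05 and 1 to 828 of all genes called. Of all genes, 1 was called at a mean of at least 5 TPM, where 4 of the collagens were too low to be tested, and 1 with mouse number as a replicate block. The block left 1 collagen at an unadjusted p under 0.05, where 19.3% of all genes had one, and having no filter left 0, where 13.2% did. Same-numbered libraries deviated from their genotype means with correlations of -0.022, 0.058 and 0.018, so the numbers give no pairing. The sign of each of the 8 log2 fold changes was kept under every alternative that tested it, other than Col4a5, which ranged from -0.17 to 0.030 over left-out libraries. Read depth is unknown, so how far it limits the 4 low genes cannot be stated.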
